A study of Homo sapiens with 12 samples.

Results

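The insulin-like growth factor (IGF) receptor IGF1R was examined together with its closest partners in a human kidney cancer cell line, across 4 groups of RNA sequencing libraries. The 10 genes, taken from a list of names, were the receptors IGF1R, INSR and IGF2R, the adaptors IRS1 and IRS2, and the binding proteins IGFBP2, IGFBP3, IGFBP4, IGFBP6 and IGFBP7, out of 60617 gene IDs in the count tables. All 10 were found and all 10 passed the filter on low counts in every comparison. They were chosen with earlier results of these data known, so their passing the filter is not a result about the family. The same holds for the shares of the 10 given below as separated or called, and for their medians. The cells were 769-P, an established clear cell renal carcinoma line, and the series' title names the long non-coding RNA DRAIC, the RNA-binding protein hnRNPA2B1 and m6A-modified IGF1R RNA. Each library carries 1 of 4 genotype labels, siDRAIC, siDRAIC-NC, sihnRNPA2B1 or sihnRNPA2B1-NC, with 3 libraries each. The labels without NC name a small interfering RNA (siRNA), and each NC group is taken here as the control of the siRNA it is named with. The labels do not spell out NC, give no siRNA sequence, dose or time, and do not say that replicates were separate cultures. The p-values therefore cover the spread among these libraries alone, and that spread may be technical. All groups are 1 cell line without other cells of the tumour.

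IGF1R and INSR are receptor tyrosine kinases at the cell surface that bind IGF1, IGF2 and insulin. Once active, they recruit the adaptors IRS1 and IRS2, which pass the signal to the PI3K and AKT kinases and to the RAS pathway. IGF2R, also the mannose-6-phosphate receptor, has no kinase and carries IGF2 and lysosomal enzymes to the lysosome. The IGF binding proteins are secreted and hold IGFs away from, or release them to, their receptors; IGFBP7 binds IGFs weakly and is also known as a matrix protein. In kidney tubule cells and in renal carcinoma this pathway is known as a route to growth and survival signalling.

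Library totals ran from 30798303 to 42760528 counts. Levels are given as CPM, counts scaled to a common library total, adjusted by TMM factors over all 12 libraries, as mean ± SD (n = 3). The library siDRAIC-NC replicate 1 stood apart from the other controls of its experiment: the chi-square per degree of freedom over genes was 140 and 122 against replicates 2 and 3, and 30.3 between those. The siDRAIC libraries were also widely spread, at 56.5 to 92.3 between pairs, while in the hnRNPA2B1 experiment the value was at most 16.9 within a group. HNRNPA2B1 RNA was 424 ± 15.5 CPM in sihnRNPA2B1-NC and 287 ± 15.8 CPM in sihnRNPA2B1, a log2 fold change of -0.56 (SE 0.05, edgeR quasi-likelihood test, adjusted p = 2.16e-09). Between the controls, siDRAIC-NC over sihnRNPA2B1-NC, its log2 fold change was larger in size, at 0.90 (SE 0.11, edgeR adjusted p = 0.000224). In siDRAIC over siDRAIC-NC it was -0.25 (SE 0.16, edgeR adjusted p = 0.622). Exons of CBX3 overlap HNRNPA2B1 on the opposite strand. The strand setting of the counts is not known, so these values may include counts of CBX3. DRAIC had 2, 1 and 2 counts in siDRAIC-NC and 3, 6 and 0 in siDRAIC, so a knockdown was not detectable at this depth, and those cells are called the libraries labelled siDRAIC. Of 15 markers of kidney epithelium and clear cell carcinoma, 11 reached a mean of 1 CPM in each group, among them PAX8 at 428 to 506 CPM. Others differed between groups. CDH6 was 111 ± 11.4 CPM in siDRAIC-NC and 199.9 ± 20.1 in siDRAIC. In sihnRNPA2B1-NC and sihnRNPA2B1 it was 8.09 ± 0.756 and 30.5 ± 3.34 CPM. CA12 was 169 ± 30.5, 63.0 ± 17.8, 33.55 ± 2.33 and 70.1 ± 5.54 CPM in the same order. At an edgeR adjusted p below 0.05, 1 of 12 tested was higher and 1 lower in siDRAIC (0.713% of all genes). After hnRNPA2B1 siRNA these were 4 and 2 (30.4%). CA9, a hallmark of clear cell carcinoma, was at 0 in all libraries of 3 groups and at 0.0180 CPM in siDRAIC-NC.

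Per length, the 10 RNAs spanned a wide range, and the order was similar in both control groups. In siDRAIC-NC the levels in CPM per kb of exon were 36.3 for IGFBP7, 32.0 for IRS2, 21.4 for IGF2R, 18.7 for IGFBP6, 6.05 for IRS1, 3.61 for IGFBP3, 1.89 for IGF1R, 0.767 for IGFBP2, 0.488 for INSR and 0.375 for IGFBP4. Neighbours whose 3 libraries overlapped in that order were IGFBP7 with IRS2, IGF2R with IGFBP6, IRS1 with IGFBP3, and INSR with IGFBP4. In sihnRNPA2B1-NC the order was IRS2 at 44.4, IGF2R at 37.0, IGFBP6 at 21.7, IGFBP7 at 17.0, IRS1 at 6.36, IGFBP3 at 3.94, IGF1R at 1.64, INSR at 0.683, IGFBP4 at 0.303 and IGFBP2 at 0.149 CPM per kb. There the overlapping neighbours were IGFBP6 with IGFBP7 and IGFBP4 with IGFBP2. IGF1R RNA was thus below both IRS adaptors and IGF2R per length, and above INSR in every group. The lengths are of merged exons, which can exceed that of a single transcript, so the order between genes depends on them.

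**Figure D1:**
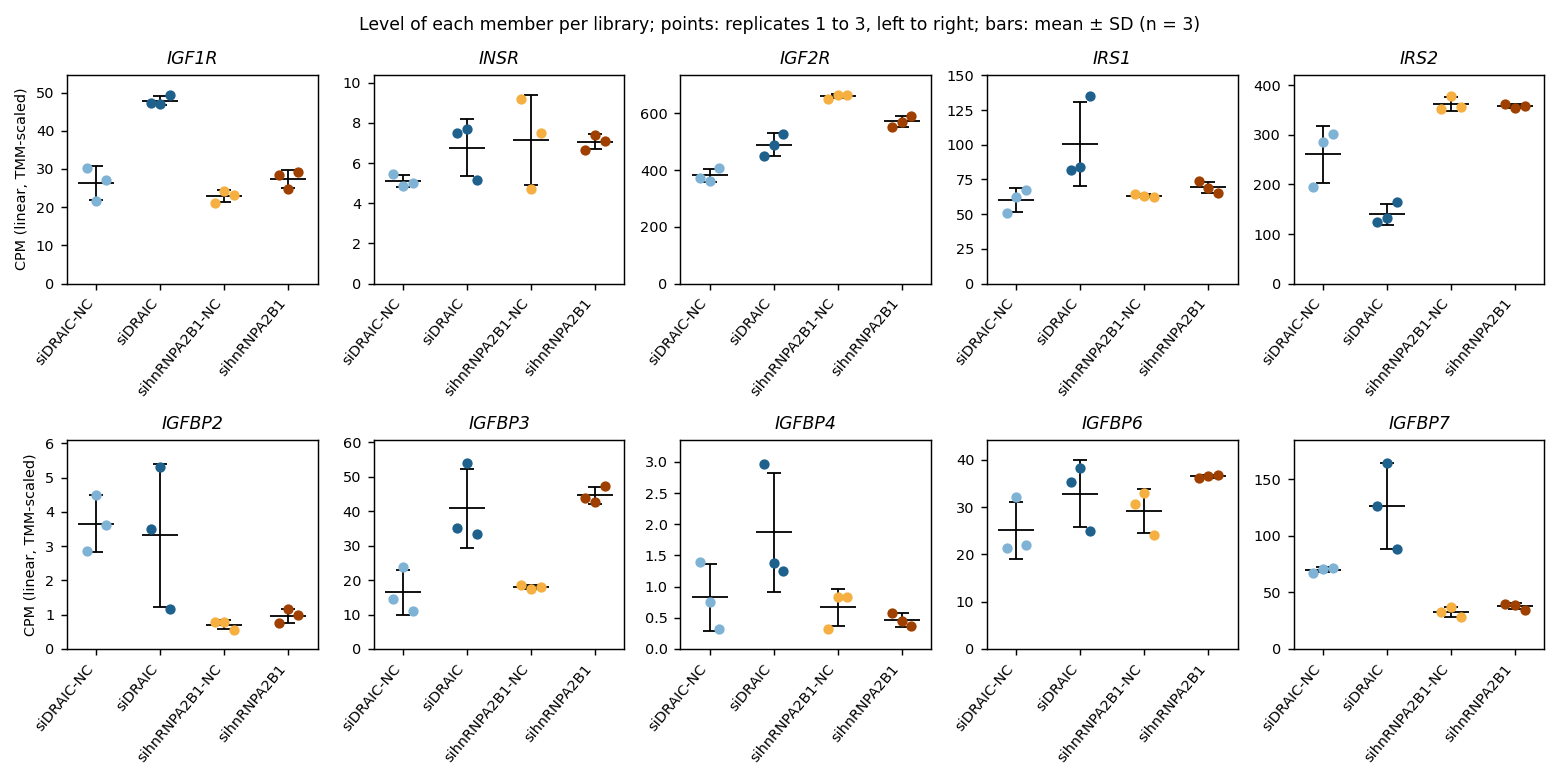
CPM (linear axis from 0, scaled by TMM) of each gene in each of the 12 libraries; points are replicates 1 to 3, horizontal lines means, and bars 1 SD over 3 libraries. IGF1R lies at 47.1 to 49.3 CPM in the libraries labelled siDRAIC and at 21.1 to 30.3 in both control groups; IGFBP3 is higher with either siRNA than in its own controls.

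In the libraries labelled siDRAIC, 5 of the 10 genes (IGF1R, IGF2R, IRS1, IGFBP3 and IGFBP7) were higher than in every library of siDRAIC-NC, and IRS2 was lower. Over all 15986 genes tested, 14.7% were separated in this way. In the edgeR quasi-likelihood test, in which a gene is called at an adjusted p below 0.05, 0 of the 10 were called, against 0.713% of all genes; 7 of 10 had an unadjusted p below 0.05, against 10.7%. Same-numbered libraries of this experiment deviated together. The labels state no pairs, so the pairing is read from the same counts that the block then tests. With the replicate number as a block 6 of the 10 were called, against 8.78% of all genes: 5 higher, against 5.2%, and 1 lower, against 3.58%. By other tools or settings, 4 were called by DESeq2 (2.43% of all genes), 5 without the low-count filter (1.69%), 6 with all 12 libraries in 1 fit (3.89%), and 0 by limma-voom. The fit of all 12 libraries shares its estimate of spread with the hnRNPA2B1 experiment, whose replicates lay closer together. The median log2 fold change of the 10 was 0.607, and that of all tested genes was -0.00458. As the 10 were chosen with earlier results known, these shares and medians cannot show that the family changed more than other genes.

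After hnRNPA2B1 siRNA, 4 of the 10 genes were called, against 30.4% of the 15710 genes tested. IGF1R, IGFBP3 and IGFBP6 rose (15.1% of all genes were called higher) and IGF2R fell (15.4% were called lower). The share called among the 10 is near that of all genes. The groups did not overlap for 5 of 10, against 42.5% of all genes. With all 12 libraries in 1 fit, IGFBP3 alone of the 10 was called, against 1.66% of all genes. The estimate of spread in that fit also takes in the more widely spread DRAIC libraries. The median log2 fold change of the 10 was 0.164, and that of all tested genes was 0.00753.

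**Figure D2:**
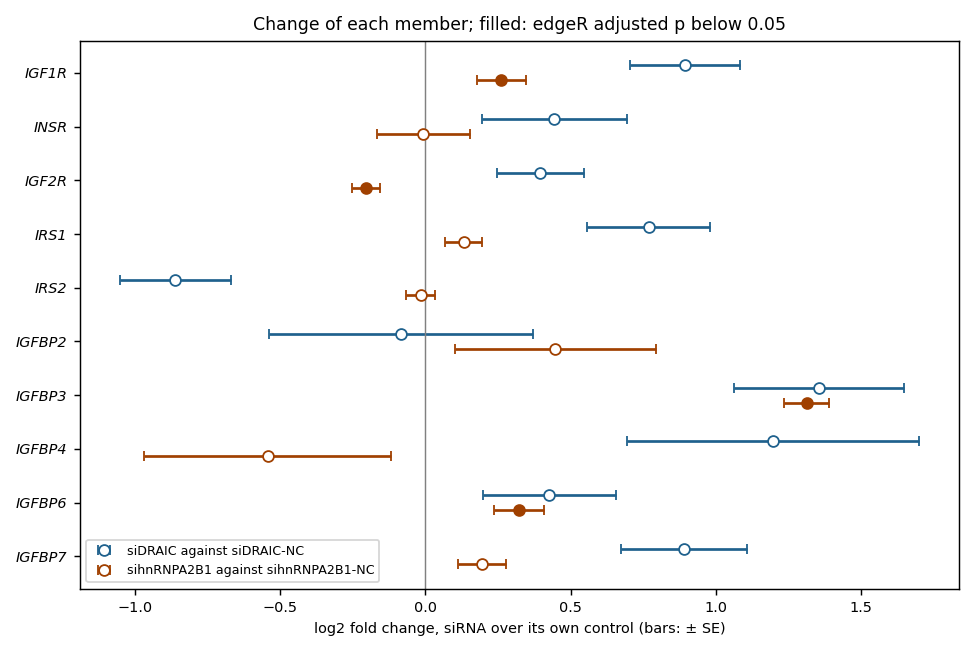
Log2 fold change of each gene (x axis) in the libraries labelled siDRAIC over siDRAIC-NC and in sihnRNPA2B1 over sihnRNPA2B1-NC; bars are ± 1 SE and filled points have an edgeR adjusted p below 0.05. IGFBP3 has the highest estimate in both, 1.36 and 1.31, while IGF2R lies above 0 in the first (0.40) and below 0 in the second (-0.21).

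IGF1R, the gene in the series' title (ENSG00000140443, GRCh38 chr15:98648539-98964530, plus strand), was higher in every siRNA library than in the controls of its experiment. Its levels were 30.3, 21.6 and 27.2 CPM in siDRAIC-NC and 47.4, 47.1 and 49.3 CPM in the libraries labelled siDRAIC. The groups did not overlap, and the 3 siDRAIC libraries lay close together. This was a 1.86-fold difference (log2 fold change 0.89, SE 0.19, edgeR adjusted p = 0.0538), just outside the threshold, and 93.6% of all genes had a smaller absolute change. With the replicate block the log2 fold change was 0.91 (adjusted p = 4.85e-06), and without siDRAIC-NC replicate 1 it was 1.02 (adjusted p = 0.00773).

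After hnRNPA2B1 siRNA IGF1R rose from 21.1, 24.3 and 23.3 CPM to 28.4, 24.7 and 29.2 CPM. The lowest siRNA library was just above the highest control. By the edgeR test this 1.20-fold increase was called (log2 fold change 0.26, SE 0.08, adjusted p = 0.0188). The call was lost when sihnRNPA2B1-NC replicate 1 was left out (adjusted p = 0.126), when replicate 1 or 3 of sihnRNPA2B1 was left out (0.0889 and 0.104), and with all 12 libraries in 1 fit (0.382).

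The window of 250 bases before the RefSeq start site of IGF1R (GRCh38.p14, chr15:98648289-98648538, plus strand) is shown because IGF1R was higher with both siRNAs. GC boxes (GGGCGG or, on the other strand, CCGCCC; overlapping matches counted) are in capitals, and the window holds 2.
IGF1R promoter: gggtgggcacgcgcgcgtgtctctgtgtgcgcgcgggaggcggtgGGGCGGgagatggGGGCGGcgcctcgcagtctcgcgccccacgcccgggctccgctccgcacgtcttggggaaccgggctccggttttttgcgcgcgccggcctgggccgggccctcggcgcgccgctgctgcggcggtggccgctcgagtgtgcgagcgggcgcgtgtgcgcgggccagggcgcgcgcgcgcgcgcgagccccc
Its GC content was 81.2%, above that of 97.7% of 35116 RefSeq windows of the same length, of which 42.6% hold a GC box. Neither TATAAA nor the FOXO-type letters TGTTTAC were found in the window on either strand.

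Because the title names m6A-modified IGF1R, its longest-coding GENCODE 29 transcript was searched for GGACT, a form of the letters in which m6A is often found; m6A itself was not measured in these libraries. The transcript (ENST00000650285.1, 12235 bases, 21 exons) holds 9, of which 6 are coding and 2 lie after the stop codon. The 4 nearest to the stop codon are shown with 8 bases on each side and the 5 letters in capitals.
IGF1R exon 8, coding, chr15:98913167-98913187: gaagccctGGACTcagtacgc
IGF1R exon 11, coding, chr15:98922409-98922429: ctttgcaaGGACTatgcccgc
IGF1R exon 21, after the stop codon, chr15:98958446-98958466: gtttccagGGACTcagcccca
IGF1R exon 21, after the stop codon, chr15:98958572-98958592: tgttcctaGGACTtcttcatg
At 0.736 per kb, IGF1R was below the median of 0.946 over 13010 expressed protein-coding genes, of which 91.2% hold at least 1. Among the binding proteins, the transcripts of IGFBP3 and IGFBP7 hold 0, and those of IGFBP4 and IGFBP6 hold 1.82 and 1.71 per kb. The IGFBP3 transcript searched has 1050 bases, 891 of them coding, against 4571 exon bases of the gene, so most of its non-coding exon sequence was not searched. A match of letters is a description and not a measured site.

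INSR, the insulin receptor (ENSG00000171105, chr19:7112255-7294034, minus strand), was the lower of the 2 kinase receptors in every library. This holds in CPM and per kb of merged exon. The merged exons of INSR have 10451 bases, against 4721 in its longest-coding transcript, and those of IGF1R 13941 against 12235. The order per length and the ratio of both therefore depend on the length used, and transcript lengths were not tried. It stood at 5.45, 4.86 and 5.00 CPM in siDRAIC-NC and at 7.51, 7.67 and 5.13 CPM in the libraries labelled siDRAIC. The groups overlapped at siDRAIC replicate 3 (log2 fold change 0.44, SE 0.25, edgeR adjusted p = 0.563). In sihnRNPA2B1-NC it was 9.19, 4.73 and 7.51 CPM and after the siRNA 6.66, 7.41 and 7.07 CPM, with the siRNA libraries inside the range of the controls (log2 fold change -0.01, SE 0.16, edgeR adjusted p = 0.981). The ratio of IGF1R to INSR per kb was 3.86 ± 0.463 in siDRAIC-NC, 5.51 ± 1.46 in siDRAIC, 2.63 ± 1.10 in sihnRNPA2B1-NC and 2.93 ± 0.376 in sihnRNPA2B1. Its lowest siDRAIC library, at 4.60, was above the highest siDRAIC-NC library, at 4.17, while the ranges overlapped in the other experiment.

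IGF2R, the scavenger receptor for IGF2 (ENSG00000197081, chr6:159969099-160113507, plus strand), lay on opposite sides of its controls in the 2 experiments. It was 373, 363 and 407 CPM in siDRAIC-NC and 449.8, 490.4 and 529 CPM in the libraries labelled siDRAIC. All siDRAIC libraries were higher, by 1.32-fold, without a call (edgeR log2 fold change 0.40, SE 0.15, adjusted p = 0.344; 0.0596 with the block), except with all 12 libraries in 1 fit (adjusted p = 0.0438). After hnRNPA2B1 siRNA it fell from 652, 664 and 664 CPM to 553, 571 and 592 CPM, with no overlap. That decrease was 0.867-fold (edgeR log2 fold change -0.21, SE 0.05, adjusted p = 0.00155). It was called with each library left out and not with all 12 libraries in 1 fit (adjusted p = 0.313).

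The 2 IRS adaptors were found on opposite sides of their controls in the libraries labelled siDRAIC, and near their controls after hnRNPA2B1 siRNA. IRS1 (ENSG00000169047, chr2:226731317-226799759, minus strand) was 51.0, 62.1 and 67.4 CPM in siDRAIC-NC and 81.7, 83.9 and 135 CPM in siDRAIC. All siDRAIC libraries were above all controls, and replicate 3 was far above the other two. The difference was 1.70-fold (edgeR log2 fold change 0.77, SE 0.21, adjusted p = 0.149; with the block 0.74, adjusted p = 7.36e-05), and without siDRAIC replicate 3 it was 0.51 (adjusted p = 0.340). IRS2 (ENSG00000185950, chr13:109752698-109786568, minus strand) was 194.7, 286 and 302 CPM in siDRAIC-NC and 123, 133 and 164 CPM in siDRAIC. Every siDRAIC library was lower than every control, a 0.550-fold difference (log2 fold change -0.86, SE 0.19, edgeR adjusted p = 0.0638). It was called with the block (-0.85, adjusted p = 4.57e-07) and without siDRAIC-NC replicate 1, the lowest control (-1.03, adjusted p = 0.00347).

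In the hnRNPA2B1 experiment IRS1 was 64.6, 63.3 and 62.1 CPM in the controls and 73.7, 68.6 and 65.6 CPM with the siRNA. The siRNA libraries were all just above the controls (log2 fold change 0.13, SE 0.06, edgeR adjusted p = 0.114). IRS2 was 351, 377 and 356 CPM in the controls and 361, 353 and 358 CPM with the siRNA, inside the range of the controls (log2 fold change -0.02, SE 0.05, edgeR adjusted p = 0.841).

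The ratio of IRS1 to IRS2 per kb put both adaptors on 1 scale within each library. It was 0.192 ± 0.0196 in siDRAIC-NC and 0.578 ± 0.0843 in the libraries labelled siDRAIC. The highest control was 0.214 and the lowest siDRAIC library 0.518. In sihnRNPA2B1-NC it was 0.143 ± 0.00653 and in sihnRNPA2B1 0.159 ± 0.00854. IRS2 RNA therefore exceeded IRS1 RNA per length in all 12 libraries, with the smallest gap in siDRAIC. The gene AL162497.1 overlaps IRS2 exons on the opposite strand. The strand setting of the counts is not known, so IRS2 values may include counts of that gene.

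**Figure D3:**
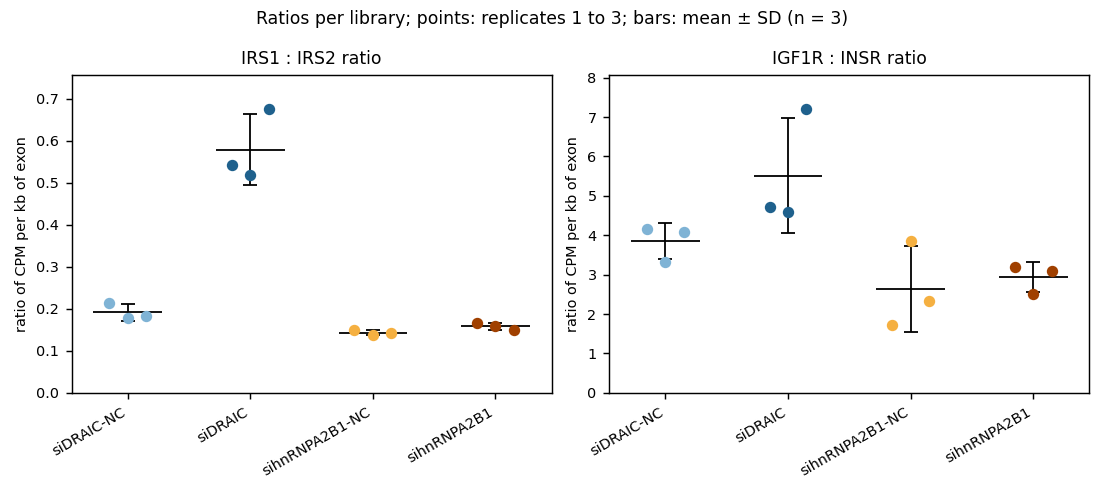
Ratio of CPM per kb of exon for IRS1 to IRS2 (left) and IGF1R to INSR (right) in each library; points are replicates 1 to 3, lines means and bars 1 SD over 3 libraries, on linear axes from 0. The 3 siDRAIC libraries lie at 0.518 to 0.674 for IRS1 to IRS2, above all other libraries, which reach 0.214.

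The promoter windows of both adaptors (RefSeq, GRCh38.p14, minus strand, 250 bases before the start site, GC boxes in capitals) are shown because their RNAs lay on opposite sides of the controls. That of IRS1 spans chr2:226799821-226800070 and that of IRS2 chr13:109786584-109786833.
IRS1 promoter: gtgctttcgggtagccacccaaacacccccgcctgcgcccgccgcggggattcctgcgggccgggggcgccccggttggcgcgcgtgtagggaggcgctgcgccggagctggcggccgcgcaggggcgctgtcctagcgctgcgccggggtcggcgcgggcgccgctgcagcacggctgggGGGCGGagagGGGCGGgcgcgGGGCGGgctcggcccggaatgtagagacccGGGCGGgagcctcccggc
IRS2 promoter: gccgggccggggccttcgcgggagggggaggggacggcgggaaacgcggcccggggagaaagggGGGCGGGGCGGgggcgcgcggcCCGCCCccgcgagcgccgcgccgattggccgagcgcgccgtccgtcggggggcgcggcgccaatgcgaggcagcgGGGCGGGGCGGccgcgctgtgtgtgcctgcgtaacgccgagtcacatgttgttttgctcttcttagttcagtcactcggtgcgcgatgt
The IRS1 window holds 4 GC boxes at 80.8% GC and the IRS2 window 5 at 76.4% GC, counting overlapping matches. Neither holds TATAAA or TGTTTAC. Of the 10 genes, 9 have a window in the RefSeq table. TATAAA, in 10.7% of all windows, was found for IGFBP4 only, and TGTTTAC, in 3.0% of all windows, for IGFBP6 only.

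IGFBP3, the main carrier of IGFs in blood (ENSG00000146674, chr7:45912245-45921874, minus strand), was at more than 2 times its control level with either siRNA. It was 14.6, 23.8 and 11.1 CPM in siDRAIC-NC and 35.1, 54.1 and 33.4 CPM in the libraries labelled siDRAIC. All siDRAIC libraries were above all controls, and replicate 2 was the highest in both groups. The difference was 2.56-fold (edgeR log2 fold change 1.36, SE 0.29, adjusted p = 0.0638), called with the block (1.38, adjusted p = 1.12e-12) and without siDRAIC replicate 1 (1.47, adjusted p = 0.0456). After hnRNPA2B1 siRNA it rose from 18.6, 17.5 and 17.9 CPM to 43.9, 42.7 and 47.4 CPM. The groups were far apart, at 2.48-fold (edgeR log2 fold change 1.31, SE 0.08, adjusted p = 1.10e-13), and IGFBP3 was called under every alternative run for this comparison, with adjusted p up to 0.0103.

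IGFBP7 (ENSG00000163453, chr4:57030773-57110385, minus strand) was 67.5, 71.1 and 71.8 CPM in siDRAIC-NC and 127, 164 and 88.1 CPM in the libraries labelled siDRAIC. The controls were tight and all siDRAIC libraries were higher, though spread from 88.1 to 164. The difference was 1.85-fold (edgeR log2 fold change 0.89, SE 0.22, adjusted p = 0.0970; with the block 0.84, adjusted p = 2.56e-06), and its leave-one-out range was 0.62 to 1.10. After hnRNPA2B1 siRNA it was 39.5, 38.7 and 34.8 CPM against 33.0, 37.1 and 28.6 CPM in the controls, with overlap (log2 fold change 0.20, SE 0.08, edgeR adjusted p = 0.0735). It was called without sihnRNPA2B1-NC replicate 2 (adjusted p = 0.00560) and without sihnRNPA2B1 replicate 3 (0.0422). Exons of IGFBP7-AS1 and POLR2B overlap IGFBP7 on the opposite strand. The strand setting of the counts is not known, so IGFBP7 values may include counts of those genes.

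IGFBP6, a binding protein that prefers IGF2 (ENSG00000167779, chr12:53097436-53102345, plus strand), was 21.4, 32.1 and 21.9 CPM in siDRAIC-NC and 35.3, 38.3 and 24.8 CPM in the libraries labelled siDRAIC. The groups overlapped (log2 fold change 0.43, SE 0.23, edgeR adjusted p = 0.532). It rose after hnRNPA2B1 siRNA, from 30.6, 32.9 and 24.0 CPM to 36.2, 36.6 and 36.7 CPM, without overlap and with a far smaller spread in the siRNA group. The increase was 1.25-fold (edgeR log2 fold change 0.32, SE 0.09, adjusted p = 0.00517; 0.437 with all 12 libraries in 1 fit).

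IGFBP4 and IGFBP2 were the weakest of the binding proteins. IGFBP4 (ENSG00000141753, chr17:40443461-40457731, plus strand), whose grip on IGFs is released by the protease PAPPA, was 1.40, 0.752 and 0.323 CPM in siDRAIC-NC and 2.97, 1.39 and 1.26 CPM in the libraries labelled siDRAIC. Each siDRAIC library was above the control of the same number, while the groups overlapped (log2 fold change 1.20, SE 0.50, edgeR adjusted p = 0.403; with the block 1.28, adjusted p = 0.00699). With a library left out the log2 fold change ran from 0.72, without siDRAIC replicate 1, to 1.83, without siDRAIC-NC replicate 1. In the hnRNPA2B1 experiment it was below 1 CPM in all libraries (log2 fold change -0.54, SE 0.43, edgeR adjusted p = 0.361). IGFBP2 (ENSG00000115457, chr2:216632828-216664436, plus strand) was 2.86, 4.51 and 3.60 CPM in siDRAIC-NC and 3.51, 5.31 and 1.15 CPM in siDRAIC, with overlap (log2 fold change -0.08, SE 0.46, edgeR adjusted p = 0.973). In sihnRNPA2B1-NC it was 0.785, 0.783 and 0.556 CPM and in sihnRNPA2B1 0.750, 1.15 and 0.981 CPM (log2 fold change 0.45, SE 0.35, edgeR adjusted p = 0.353).

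Summed per kb, the 5 binding proteins reached 59.8 ± 6.47 CPM per kb in siDRAIC-NC, 100.3 ± 27.5 in siDRAIC, 43.1 ± 5.58 in sihnRNPA2B1-NC and 56.8 ± 0.690 in sihnRNPA2B1. In each experiment the lowest siRNA library was above the highest control. IGFBP7 made up 61.2% ± 5.60 of the sum in siDRAIC-NC and 64.9% ± 1.89 in siDRAIC, against 39.5% ± 0.752 and 34.3% ± 1.89 in the hnRNPA2B1 experiment, where IGFBP6 was the largest part at 50.2% ± 1.75 and 47.7% ± 0.920. The share of IGFBP3 was 5.93% ± 1.74 in siDRAIC-NC, 8.99% ± 1.30 in siDRAIC, 9.24% ± 1.30 in sihnRNPA2B1-NC and 17.2% ± 1.12 in sihnRNPA2B1. These sums and shares are a description and were not tested. They depend on the merged exon lengths, which for IGFBP3 are 4571 bases, against 1050 in its longest-coding transcript.

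**Figure D4:**
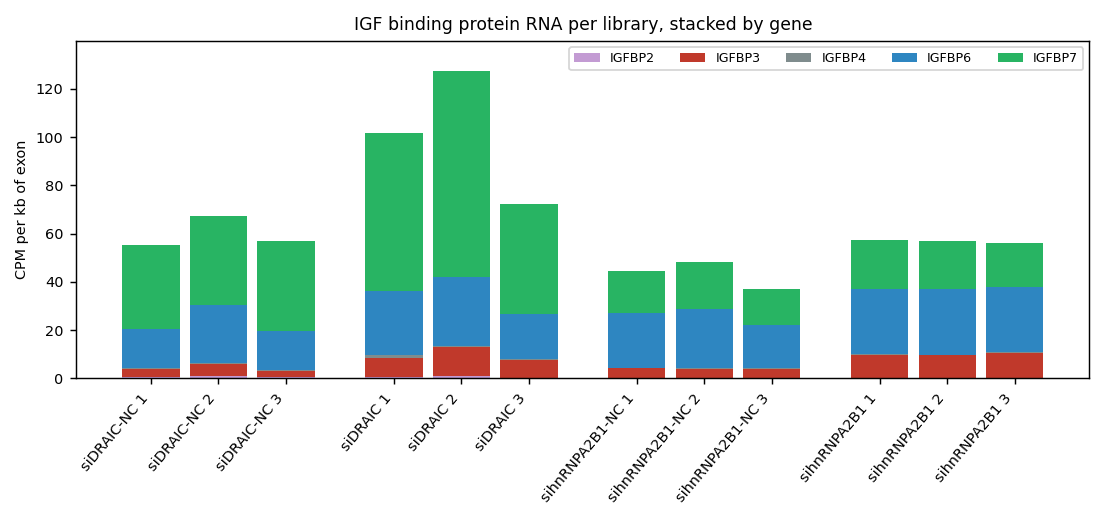
RNA of the 5 binding proteins in each library as CPM per kb of exon (linear axis from 0), stacked by gene. The share of IGFBP7 in single libraries is 54.9% to 66.9% in the DRAIC experiment and 32.2% to 40.0% in the other; the IGFBP3 layer is larger in sihnRNPA2B1 than in its controls.

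Genes used as markers of other cells were counted beside these values, although all libraries are of 1 cell line. The 6 fibroblast markers summed to 2.66 to 6.25 CPM in siDRAIC-NC and 10.2 to 17.8 CPM in siDRAIC; COL1A2 and LUM were at 0 in both groups and PDGFRA in siDRAIC-NC. Most of that sum was COL1A1, a collagen gene that went from 2.62 ± 1.48 to 9.68 ± 2.98 CPM (log2 fold change 1.91, edgeR adjusted p = 0.0462). That call is close to the threshold and was not followed under the alternatives. The other fibroblast marker tested, the receptor PDGFRB, was 1.28 ± 0.582 CPM in siDRAIC-NC and 4.16 ± 2.18 CPM in siDRAIC (1.74, edgeR adjusted p = 0.154). In the hnRNPA2B1 experiment the fibroblast sum was 2.49 to 3.62 CPM in the controls and 3.59 to 4.22 CPM with the siRNA. The 4 hepatocyte markers, almost all from SERPINA1, summed to 195.3 to 372 CPM in siDRAIC-NC and 167 to 197 CPM in siDRAIC. Their sum was 52.7 to 57.1 CPM in sihnRNPA2B1-NC and 28.6 to 31.9 CPM in sihnRNPA2B1. The 4 neuronal markers, mostly NEFL, summed to 49.3 to 68.1 CPM in siDRAIC-NC and 30.6 to 32.6 CPM in siDRAIC, without overlap, and to 38.4 to 41.4 and 34.5 to 39.9 CPM in sihnRNPA2B1-NC and sihnRNPA2B1. Smooth muscle markers overlapped between siRNA and control in both experiments. Blood and immune markers reached at most 1.34 CPM and endothelial markers at most 0.861 CPM in any library. Mitochondrial mRNAs took 6.79% to 7.41% of counts in siDRAIC-NC and 7.67% to 9.26% in siDRAIC, and 5.10% to 5.21% and 6.23% to 6.48% in sihnRNPA2B1-NC and sihnRNPA2B1. These are RNA levels of marker genes in 769-P cells and not shares of cell types. The part of these values in the results above was not tested. In bulk libraries, more cells holding an RNA and more RNA per cell cannot be told apart.

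The change of each gene in the libraries labelled siDRAIC was set against its change after hnRNPA2B1 siRNA in 1 fit of all 12 libraries. Of the 10 genes, 0 were called, against 0.211% of the 17091 genes tested, and 6 had an unadjusted p below 0.05, against 9.13%. IGF2R and IRS2 came closest, with a difference of log2 fold changes (siDRAIC minus sihnRNPA2B1) of 0.57 (SE 0.13, edgeR adjusted p = 0.125) for IGF2R and -0.88 (SE 0.21, adjusted p = 0.126) for IRS2. Both were called with the replicate block (adjusted p = 0.0381 and 0.00907; 1.51% of all genes) and by DESeq2 (0.0141 and 0.0244; 1.15% of all genes). IGF1R differed by 0.60 (SE 0.19, adjusted p = 0.294), and IGFBP3 by -0.00 (SE 0.33, adjusted p = 1.00). Without siDRAIC-NC replicate 1, the genes IGF1R (adjusted p = 0.0451), IGF2R (0.0283) and IRS2 (0.00241) were called. Calls over all genes also rose in that fit, from 36 to 349.

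The control groups of the 2 experiments also differed for 4 of the 10 genes, against 50.1% of the 15868 genes tested. IGFBP2 (5.15-fold; edgeR log2 fold change 2.36, SE 0.28, adjusted p = 0.000167) and IGFBP7 (2.13-fold; 1.09, SE 0.14, adjusted p = 0.000215) were higher in siDRAIC-NC than in sihnRNPA2B1-NC; 25.3% of all genes were called higher. IGF2R (log2 fold change -0.79, SE 0.11, adjusted p = 0.000337) and IRS2 (-0.47, SE 0.16, adjusted p = 0.0367) were lower, as were 24.8% of all genes. The same 4 genes had no overlap between the groups, against 60.2% of all genes. IGF1R was not called (0.20, SE 0.16, adjusted p = 0.310). IRS2 lost its call without siDRAIC-NC replicate 2 or any 1 library of sihnRNPA2B1-NC, at adjusted p up to 0.113, and INSR was called without sihnRNPA2B1-NC replicate 2 (adjusted p = 0.0294). Experiment and control siRNA cannot be told apart here.

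The genes whose pattern over the 12 libraries was most like that of IGF1R were TTC9, PERP, TUBG2, PKIB and WSB1. Likeness was the root mean square difference in log2 CPM after centring each gene on its own mean, over 11720 genes at 2 CPM or more. It was 0.175 for TTC9, 0.177 for PERP and TUBG2, 0.186 for PKIB and 0.187 for WSB1, against a median of 0.571 over all genes. A gene at the same level in all libraries would score 0.426. PERP, a p53 target at cell junctions, was 66.7 ± 11.8 CPM in siDRAIC-NC, 115 ± 12.4 in siDRAIC, 57.7 ± 1.24 in sihnRNPA2B1-NC and 77.9 ± 3.77 in sihnRNPA2B1. Among the other 9 genes of the family, IRS1 was closest to IGF1R at 0.290 (rank 216), and IRS2 (0.982, rank 10538) and IGFBP2 (1.02, rank 10708) were farthest. Apart from IRS1, all of the 9 scored above 0.426, the score of an unchanged gene. These values describe libraries that share their groups, and carry no test.

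The rest of the pathway was counted from 3 lists. Of 19 ligands, other binding proteins and regulators of the binding proteins, 10 were tested. INS had 0 counts in all 12 libraries, and IGF1 and IGF2 were each above 0 in 1 library, at 0.0539 and 0.0924 CPM, so the ligands of these receptors were at or near 0. Relatives of the 10 genes in this list were also near 0. Their highest group means were 0.108 CPM for IGFBP1, 0.0185 for IGFBP5, 0.0539 for IRS4 and 0.0449 for INSRR. In the libraries labelled siDRAIC 0 rose and 1 fell: STC1, a secreted inhibitor of PAPPA proteases, went from 2.21 ± 0.790 to 0.516 ± 0.255 CPM (log2 fold change -2.07, SE 0.43, edgeR adjusted p = 0.0476). Over all genes, 0.713% were called in that comparison. With the block, PAPPA2 also rose (5.2% of all genes were called higher). The median log2 fold change of the 10 tested was 0.251. After hnRNPA2B1 siRNA 3 rose and 3 fell (15.1% and 15.4% of all genes), with a median of -0.05.

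Among those 6, the protease HTRA1, which cleaves binding proteins, rose by 0.36 on the log2 scale (edgeR adjusted p = 0.000818). The protease ADAMTS1 (-0.43, adjusted p = 5.76e-07), the pro-protein convertase FURIN, which processes the IGF1R precursor (-0.28, adjusted p = 0.000229), and the PAPPA inhibitor STC2 (-0.27, adjusted p = 0.000377) fell. PAPPA, which cleaves IGFBP4, was chosen after its values were seen: it went from 0.580 ± 0.320 to 1.22 ± 0.110 CPM (1.05, SE 0.36, adjusted p = 0.0271), and lost its call in 5 of 6 fits with a library left out.

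Of 32 receptor adaptors and negative regulators, all were tested. In the libraries labelled siDRAIC 0 rose and 0 fell (0.713% of all genes were called). With the block these were 2 and 2 (5.2% and 3.58% of all genes). The median log2 fold change was -0.05. After hnRNPA2B1 siRNA 5 rose and 4 fell, with a median of 0.00228; the share called is near the 30.4% of all genes. SOCS3, an inhibitor of cytokine and insulin receptor signalling, fell from 67.2 ± 4.84 to 37.6 ± 3.14 CPM (-0.83, edgeR adjusted p = 4.88e-10). SOS1, the exchange factor that activates RAS, rose (0.39, adjusted p = 3.33e-05), as did SOCS6 (0.36, adjusted p = 0.000131) and the docking protein DOK4 (0.39, adjusted p = 0.000154).

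Of 33 genes of the PI3K, AKT and FOXO branch, 32 were tested. In the libraries labelled siDRAIC 1 rose and 0 fell (0.713% of all genes were called). With the block these were 3 and 1 (5.2% and 3.58% of all genes). The median log2 fold change was -0.05. After hnRNPA2B1 siRNA 3 rose and 9 fell (15.1% and 15.4% of all genes), with a median of -0.02. SGK1, a kinase related to AKT, was 28.1, 31.9 and 30.9 CPM in siDRAIC-NC and 55.1, 58.3 and 123 CPM in siDRAIC (log2 fold change 1.41, SE 0.28, edgeR adjusted p = 0.0462). Without siDRAIC replicate 3, the highest library, it was 0.95 (adjusted p = 0.0897). After hnRNPA2B1 siRNA SGK1 fell from 89.9 ± 1.33 to 58.0 ± 5.77 CPM (-0.63, SE 0.07, adjusted p = 1.76e-08). The mTOR subunit MLST8 (-0.36, adjusted p = 9.06e-05) and the mTOR activator RHEB (-0.27, adjusted p = 0.000252) fell, and the transcription factor FOXO4 rose (0.89, adjusted p = 0.00184). The siDRAIC calls on STC1 and SGK1 were each lost by RLE scaling, limma-voom and the stricter filter and in 5 of 6 fits with a library left out, at adjusted p up to 0.265. With all 12 libraries in 1 fit, 0 genes of the 3 lists were called for hnRNPA2B1 siRNA, where 1.66% of all genes were called.

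The plot of every alternative shows where the calls on the 10 genes lie. In both siRNA comparisons direction was kept under all alternatives for IGF1R, IGF2R, IRS1, IGFBP3, IGFBP6 and IGFBP7. For IGFBP4 it was kept wherever that gene was tested. In the libraries labelled siDRAIC, the calls appear with the block, DESeq2, no filter or all 12 libraries, and mostly not with a library left out.

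**Figure D5:**
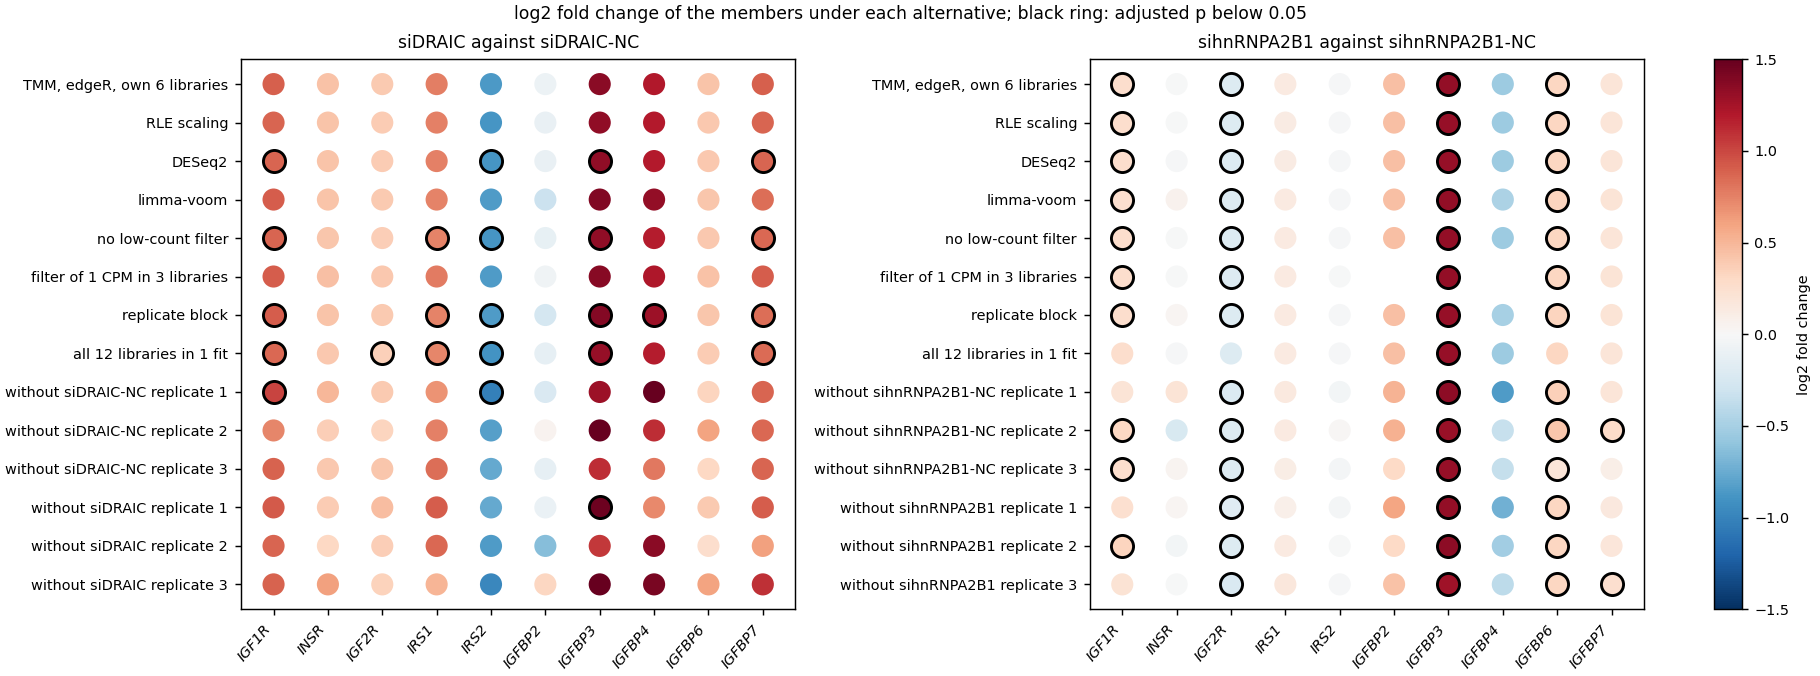
Log2 fold change (colour scale, -1.5 to 1.5) of each gene (x axis) under each setting (y axis) for the libraries labelled siDRAIC (left) and hnRNPA2B1 siRNA (right); black rings mark an adjusted p below 0.05. IGFBP3 is ringed in all settings on the right; 6 genes are ringed with the replicate block on the left, and blank places are genes not tested under the stricter filter.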

How the data were processed

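RNA was sequenced from 12 libraries of 769-P cells. The deposited values are raw counts per Ensembl gene ID, in 1 table for each experiment. Per the labels' protocols, RNAiso Plus was used for total RNA and a TruSeq kit for the libraries. The submitters' processing notes name hg38, fastp 0.23.2, STAR 2.7.10a, StringTie and DESeq2; the sources used here do not give the counting program, its annotation or its strand setting. The tables share 60617 gene IDs: 60261 had a symbol in the gene name table, 58542 had a model in GENCODE 29 (GRCh38) and 33780 had a count. There were 0 unused sample columns and 0 rows naming no gene. In all 12 libraries more genes had 2 counts than 1, and 57.8% to 62.1% of values from 1 to 20 were even, so no counting interval is given; replicate spread and 3 libraries per group set the precision.

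Each comparison was fitted across all genes with edgeR 4.0.16 in R 4.3.3 (filterByExpr at a minimum count of 10, TMM, robust quasi-likelihood test, two-sided, Benjamini-Hochberg adjustment over all tested genes; the limit of a call is 0.05). Standard errors (SE) were derived from F, as the size of the log2 fold change divided by its root. The difference of the changes used 4 group means over 12 libraries. There, and in the alternative with all 12 libraries, both experiments share 1 estimate of spread, although their replicate spread differed. CPM per kb divides by merged exon length, so orders, ratios and shares between genes depend on that length. Where GENCODE genes overlap on opposite strands, it is not known whether their counts were kept apart. Fits were tested on simulated data. Alternatives were RLE scaling, DESeq2 1.42.0, limma-voom (limma 3.58.1), testing without a filter, a stricter one (1 CPM in 3 libraries), the replicate block, all 12 libraries in 1 fit and each library left out. Same-numbered libraries of the DRAIC experiment deviated together (correlations 0.37, 0.149 and 0.215; other pairs -0.274 to 0.0398), so the numbers are taken to pair them, as a reading of the data and not of the labels; those of the hnRNPA2B1 experiment did not (-0.0385 to -0.016), nor those of the 2 control groups (-0.0425 to 0.0646). Replicates differed by more than sampling noise, so none was counted as a copy.

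The 10 genes, the pathway and marker lists, the tests and the alternatives were chosen with earlier results of these data known. Named are the 10 genes, the siRNA targets, up to 4 called genes with the smallest p per pathway list, and the 5 genes most like IGF1R at a mean of 2 CPM or more; other genes named were chosen after their values were seen. Promoter windows are from RefSeq (GRCh38.p14).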

Additional observations from a re-analysis of the deposited data

Results flagged for a closer look

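The change of SGK1, a kinase that IGF1R signalling can activate, differed between the experiments: the log2 fold change in the libraries labelled siDRAIC minus that after hnRNPA2B1 siRNA was 2.01 (SE 0.33, edgeR quasi-likelihood test of the difference, adjusted p = 0.0231). All 3 siDRAIC libraries were above their controls and all 3 sihnRNPA2B1 libraries below theirs. The control groups also differed for SGK1, by -1.57 (SE 0.12, adjusted p = 1.56e-05) for siDRAIC-NC over sihnRNPA2B1-NC. Over 18 alternatives the difference was 1.54 to 2.25, with adjusted p from 7.22e-18 to 0.105, and 10 of the 18 stayed below 0.05. The 8 that did not were all fits with a library left out: siDRAIC-NC replicate 2 or 3, or any 1 of the 6 libraries of the hnRNPA2B1 experiment. The lowest value, 1.54, was without siDRAIC replicate 3. Its cause was not tested. SGK1 was not the only listed gene with such a difference. Among the kidney and clear cell carcinoma markers, CA12 (-2.49, SE 0.26, edgeR adjusted p = 0.000602) and CDH6 (-1.07, SE 0.18, adjusted p = 0.0258) also differed. Over all genes, 0.211% were called for the difference.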

How the results depend on the processing

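Over 567 alternative values for the 10 genes, 494 kept direction and side of the threshold, 35 passed it newly, 10 lost it and 28 changed sign. In the siDRAIC comparison the count of all genes called, 114, became 389 by DESeq2, 45 by limma-voom, 520 without the filter, 61 with the stricter filter, 1404 with the replicate block, 665 with all 12 libraries in 1 fit, and 9 to 1035 with a library left out; the count among the 10, 0, became 4 by DESeq2, 5 without the filter, 6 with the block, 6 with all 12 libraries and 0 to 2 with a library left out (2 without siDRAIC-NC replicate 1, 1 without siDRAIC replicate 1). RLE scaling gave 81 genes and 0 of the 10. For hnRNPA2B1 siRNA, all 12 libraries in 1 fit gave 283 genes instead of 4781 and 1 of the 10 instead of 4; a library left out gave 3318 to 5500 genes and 3 to 5 of the 10. For the difference, 36 genes became 196 by DESeq2, 263 without the filter, 258 with the block and 9 to 349 with a library left out (349 without siDRAIC-NC replicate 1), and 0 of the 10 became 2, 1, 2 and 0 to 3. The controls gave 5860 to 10376 genes and 3 to 4 of the 10. In the hnRNPA2B1 experiment and between the controls, whose numbers do not pair the libraries, the replicate block gave 4414 and 7661 genes and 4 of the 10 in each; it changed no other call on the 10. The causes were not tested.

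Sign changes were limited to estimates near 0 or with wide errors. INSR after hnRNPA2B1 siRNA became 0.0657 by limma-voom and 0.0255 with the block. The difference for IGFBP3 became 0.0138 by RLE, 0.0138 by DESeq2, 0.0409 by limma-voom, 0.0146 without the filter, 0.0449 with the stricter filter and 0.0335 with the block. With a library left out, IGFBP2 in siDRAIC ran from -0.64 to 0.33, INSR after hnRNPA2B1 siRNA from -0.24 to 0.21, IRS2 from -0.0373 to 0.0137, the differences of IGFBP3 from -0.24 to 0.36 and IGFBP6 from -0.0458 to 0.28, and in the controls IRS1 from -0.17 to 0.0340, IGFBP3 from -0.48 to 0.0876 and IGFBP4 from -0.32 to 0.67. The stricter filter left no value for IGFBP2 and IGFBP4 after hnRNPA2B1 siRNA or for IGFBP4 in the controls. RLE scaling moved the median of all genes by at most -0.0173. Low counts limit IGFBP2, IGFBP4 and INSR, and DRAIC was too low to test.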
